A study of Mus musculus with 4 samples.

Results

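The EGR, FOS and JUN genes encode zinc finger and basic leucine zipper transcription factors that a T cell induces within minutes to hours of antigen receptor signalling. The 10 genes described here are Egr1, Egr2, Egr3, Fos, Fosb, Fosl1, Fosl2, Jun, Junb and Jund, chosen by family membership out of the 18539 genes that could be named on the arrays. They were measured in mouse Th2 cells, the helper T cells that make IL-4, IL-5 and IL-13, cultured with or without SH-2251, a compound first made to inhibit IL-5 production. There were 4 conditions with 1 array each, namely control resting, SH-2251 resting, control restimulated and SH-2251 restimulated.

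All 4 cultures started from splenic CD4 T cells of female C57BL/6J mice, separated on a magnetic sorter, and the study's methods describe the starting cells as naïve. Immobilized antibody to TCR-β at 3 µg/ml and antibody to CD28 at 1 µg/ml activated the cells for 2 days, with IL-2 at 2.5 ng/ml and IL-4 at 10 ng/ml. The cells then stayed in the same cytokines for 3 more days. The study's methods also list an antibody to IFN-γ among its Th2 culture conditions. SH-2251 was present in both phases of the treated cultures, at doses that the sample labels give as 1 µM and then 1 mM, whereas the study's methods give a lower dose, so the dose behind these arrays is uncertain. Restimulated cells received antibody to TCR-β again for 4 h, and resting cells did not. The study's methods state that its mice were young adults, and the number of mice behind each culture is not given in the sources used here. With a single array per condition, no test, SD or p-value between conditions could be had, and no difference below has a replicate check.

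When the T cell receptor is engaged, the ERK, JNK and p38 kinases activate SRF with its ternary complex partners, CREB, ATF2 and existing JUN proteins, which switch on the immediate-early genes without new protein synthesis. FOS and JUN proteins pair through their leucine zippers to form AP-1, which binds cytokine gene promoters, often beside NFAT. EGR1 acts mostly as an early activator, while EGR2 and EGR3 are known in T cells for restraining activation and inducing anergy genes, and NAB1 and NAB2 bind EGR proteins and repress their activity.

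Promoter DNA of these genes is shown first, searched for letters that such factors can bind. For 7 of the 10 genes, the 250 bases before each RefSeq start site in GRCm38.p6 were searched on both strands. Windows of Egr1, Egr3 and Fosl1 were not examined, and sites farther upstream would be missed. The element most characteristic of immediate-early genes, the CArG box bound by SRF, was found among the 7 examined genes before Egr2, which has 5 listed starts. It was present in 1.47% of all 32851 windows of that length. Both CArG boxes of Egr2 lie 72 bases before one of its starts. In the sites below the capitals mark the matched letters.

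Egr2, CArG box, chr10:67537787-67537816, plus strand: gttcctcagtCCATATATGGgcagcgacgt

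Egr2, upstream CArG box, chr10:67537484-67537513, plus strand: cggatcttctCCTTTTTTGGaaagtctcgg

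The Fos window held TGACGT, the core of the element bound by CREB, 66 bases before the start, a sequence present in 6.47% of windows. It also held a TATA box 33 bases before the start (TATAAA, 12.4% of windows). The Jun window held TGACATCA, an AP-1-like letter run at which JUN and ATF2 can bind, 45 bases before the start (2.93% of windows). Fosb and Fosl2 each held GCGGGGGCG, a form of the EGR recognition sequence, 50 and 79 bases before their starts (2.57% of windows). Each of these EGR-type matches overlaps a GC box, GGGCGG, which was present in 32.7% of windows.

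Fos, CREB-type core, chr12:85473812-85473841, plus strand: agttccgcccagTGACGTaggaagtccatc

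Jun, AP-1-like run, chr4:95052249-95052278, minus strand: aagcctcggggTGACATCAtgggctatttt

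Fosb, EGR-type run, chr7:19310076-19310105, minus strand: tgacgcaagcGCGGGGGCGggtcccggagg

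Fosl2, EGR-type run, chr5:32136383-32136412, plus strand: ccggctgcgcGCGGGGGCGgaagggcgcgc

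The canonical AP-1 letters TGAGTCA (4.46% of windows), the full TGACGTCA (1.55%) and the EGR form GCGTGGGCG (0.536%) were not among the letters of these windows. The matches describe letters only, and binding was not measured.

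Each value below is the log2 of a probe's background-corrected brightness minus the 75th percentile of all probes on its array, so that 0 is the brightness of a fairly bright probe. Levels are compared within a probe and never between probes. The technical SD is the error that the scanner software gave for the spots, and it does not include differences between cultures. The 10 genes were read by 12 probes and 39 spots per array, and 8 genes had a probe well above background on all 4 arrays. On the 4 arrays 56.0% to 56.7% of probes were well above background, the 75th percentiles were 499 to 614 intensity units, 77 to 106 spots were outliers and no spot was saturated. Spots of uneven local background numbered 750 in control resting, 816 in SH-2251 resting, 463 in control restimulated and 268 in SH-2251 restimulated cells. The resting SH-2251 array stood apart in a fit of the background. The normexp method, an alternative background correction, fitted a mean background of -151.7 intensity units there against 7.36 to 8.23 on the others, and 7.81 once its 816 spots of uneven local background were left out. Differences of the 10 genes that rest on that array are also given with normexp where it changed a direction, a 2-fold call or the size by much. Differences of marker and list genes were not computed with normexp, so those that rest on that array carry no such check. All 8 markers of Th2 cells were above background on every array, and none of the 3 NK cell markers was. Of the restimulation markers, 4 of 5 were at least 2-fold higher after restimulation in control cells and 5 of 5 in SH-2251-treated cells.

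Restimulation for 4 h was accompanied by higher signal of most of the 10 genes in both cultures, with the largest differences in Egr1, Egr2 and Fosl1. In control cells 6 of 10 were at least 2-fold higher and none was 2-fold lower. Of all 12757 genes compared, 7.2% passed 2-fold upward and 7.34% downward. In SH-2251-treated cells 8 of 10 were at least 2-fold higher, where 7.09% of 12613 genes were higher and 6.98% lower. Egr3 in both cultures and Fosb with SH-2251 were not well above background at rest, so they could only differ upward. The median difference of the 10 genes was 1.49 on the log2 scale in control cells and 1.39 with SH-2251, against -0.06 and -0.05 over all genes. The count of 8 fell to 5 with the normexp background correction, which pulls dim probes together, and to 3 at a 3-fold threshold.

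**Figure D1:**
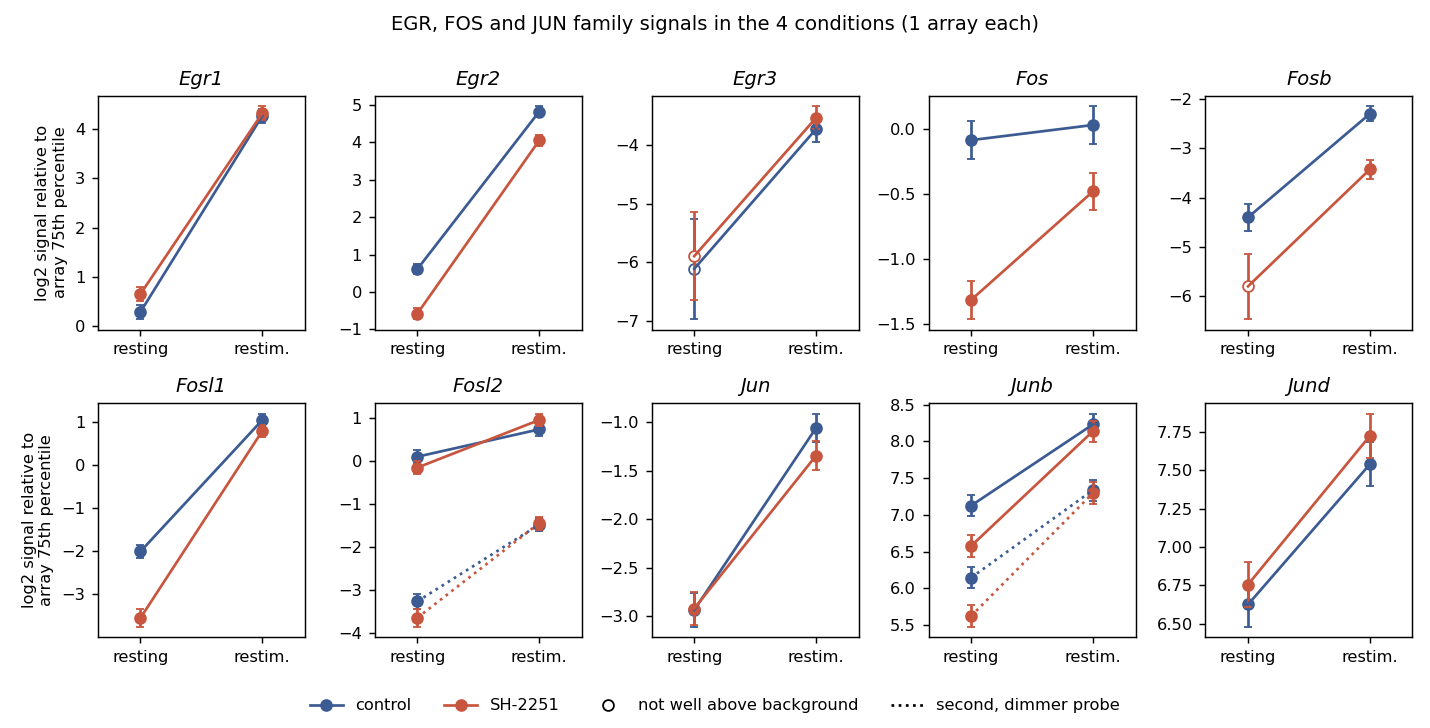
Level of each gene (log2 signal minus that of the array's 75th percentile, separate vertical scale per panel) in resting and restimulated cells, blue for control and red for SH-2251, with bars of 1 technical SD, 1 array per point. Lines run upward in all panels, and the red line lies below the blue one in both states for Egr2, Fos, Fosb, Fosl1 and Junb, with the resting SH-2251 point of Fosb not well above background and the restimulated Junb points within their technical SD.

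Egr1, the first EGR gene to respond in most cells, stood at 0.28 in control resting, 0.65 in SH-2251 resting, 4.27 in control restimulated and 4.32 in SH-2251 restimulated cells. Both restimulated arrays lay far above both resting arrays and within 0.05 of each other. The difference on restimulation was 3.99 in control cells, which is 15.9-fold and the 28th highest of 12757 genes. In SH-2251-treated cells it was 3.67 or 12.8-fold, the 44th highest of 12613.

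Egr2, which restrains T cell responses and carries the CArG boxes shown above, stood at 0.61 in control resting, -0.58 in SH-2251 resting, 4.83 in control restimulated and 4.05 in SH-2251 restimulated cells. The 4 levels were separate, with SH-2251 below control in each state. Restimulation gave a difference of 4.22, or 18.6-fold, in control cells and of 4.63, or 24.8-fold, in SH-2251-treated cells. These ranked 25th of 12757 and 23rd of 12613 genes. The probe was spotted 10 times on each array, and the spots ranged from 0.54 to 0.69, from -0.69 to -0.50, from 4.74 to 4.91 and from 3.98 to 4.11 in the same order, so that no spot of one array reached those of another.

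Egr3, a close relative of EGR2 with a similar role in anergy, was dim. It was not well above background in either resting sample (-6.11 and -5.89) and stood at -3.74 in control and -3.55 in SH-2251 restimulated cells. Against the lowest reliable signal of the resting arrays it was at least 1.98-fold higher after restimulation in control cells and at least 2.15-fold higher in SH-2251-treated cells. The bounds fall on opposite sides of the 2-fold line although the restimulated levels differed by 0.19, less than the technical SD of 0.29. With normexp the bound on the log2 scale was 0.67 instead of 0.99 in control cells and 0.0 instead of 1.11 with SH-2251, or 0.51 without the uneven spots.

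Fos, the founding AP-1 partner, whose transcript is short-lived, hardly differed with restimulation in control cells at this time point. Its level was -0.08 in control resting, -1.31 in SH-2251 resting, 0.03 in control restimulated and -0.48 in SH-2251 restimulated cells. The difference was 0.12 in control cells, below the technical SD of 0.20, and 0.84, or 1.79-fold, with SH-2251, where normexp gave 0.41. The resting SH-2251 sample was the lowest of the 4, and the control samples were the highest in either state.

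Fosb, a FOS gene with an EGR-type sequence in its promoter window, stood at -4.40 in control resting, -2.30 in control restimulated and -3.43 in SH-2251 restimulated cells, and was not well above background in SH-2251 resting cells (-5.81). It was 4.31-fold higher after restimulation in control cells, a difference of 2.11 with a technical SD of 0.32. With SH-2251 it was at least 2.34-fold higher. With normexp both fell under 2-fold, the control difference to 0.92 and the bound with SH-2251 from 1.22 to 0.0, or to 0.65 without the uneven spots.

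Fosl1, which encodes FRA-1 and is itself induced by AP-1, stood at -2.01 in control resting, -3.55 in SH-2251 resting, 1.04 in control restimulated and 0.79 in SH-2251 restimulated cells. The resting samples were far apart and the restimulated samples close together. Restimulation gave a difference of 3.05, or 8.29-fold, in control cells (74th of 12757) and of 4.34, or 20.3-fold, in SH-2251-treated cells (28th of 12613). With normexp the second value was 2.34, and 3.20 without the uneven spots.

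Fosl2, which encodes FRA-2, had 2 probes that did not give the same size of difference. The brighter stood at 0.09, -0.16, 0.73 and 0.95 in control resting, SH-2251 resting, control restimulated and SH-2251 restimulated cells, and the dimmer at -3.27, -3.65, -1.49 and -1.45. Both were higher after restimulation in both cultures. The brighter probe gave 1.55-fold in control cells and 2.15-fold with SH-2251, and the dimmer 3.44-fold and 4.59-fold, so whether Fosl2 passed 2-fold in control cells depended on the probe. With normexp the brighter probe differed by 0.96 on the log2 scale in SH-2251-treated cells, just under 2-fold.

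Jun, the JUN family member with the strongest transactivation, stood at -2.94 in control resting, -2.92 in SH-2251 resting, -1.06 in control restimulated and -1.34 in SH-2251 restimulated cells. The resting samples did not differ, and both restimulated samples were higher. Restimulation gave 3.68-fold in control cells and 2.99-fold in SH-2251-treated cells. With normexp the latter difference fell from 1.58 to 0.31 on the log2 scale, and to 0.99 when spots with uneven local background were left out first.

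Junb, known for its part in Th2 cytokine expression, was read by 2 probes. The brighter stood at 7.13, 6.58, 8.23 and 8.14 and the other at 6.15, 5.62, 7.34 and 7.30 in control resting, SH-2251 resting, control restimulated and SH-2251 restimulated cells. The probes gave the same order, with both restimulated samples above both resting ones. On the brighter probe restimulation gave 2.15-fold in control cells and 2.95-fold with SH-2251. With normexp the latter difference was 1.98 instead of 1.56 on the log2 scale. Jund, which is present in resting cells of most tissues and often varies little, stood at 6.62, 6.75, 7.54 and 7.72 in the same order of conditions. It was 1.89-fold and 1.96-fold higher after restimulation, just under the threshold, and with normexp the second difference was 1.30 on the log2 scale, past 2-fold.

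**Figure D2:**
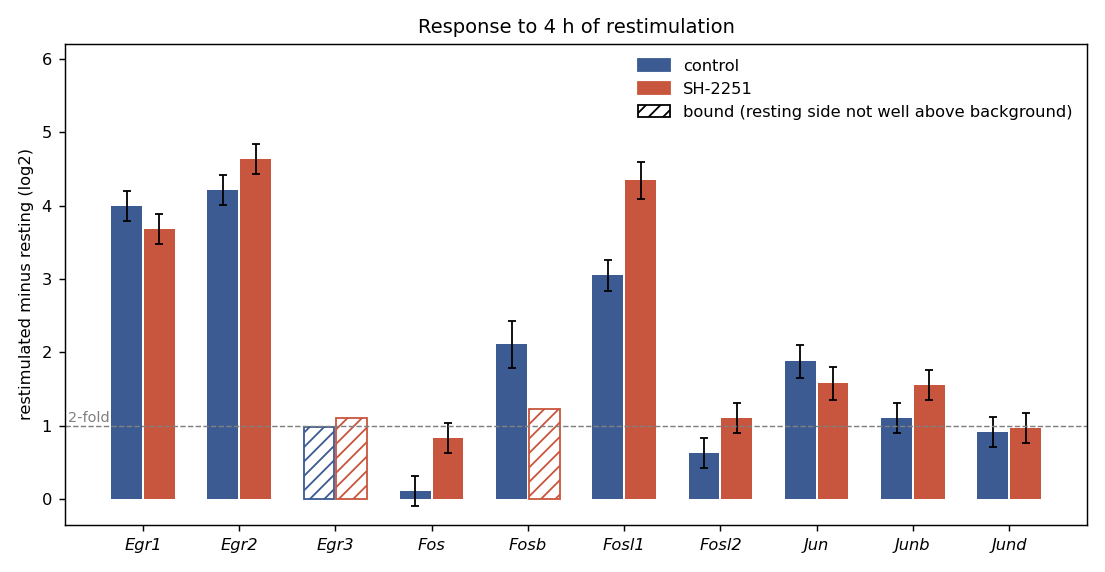
Difference between restimulated and resting cells (log2) for the 10 genes, blue for control and red for SH-2251, with 1 technical SD on measured values and hatched bars for lower bounds. Egr1, Egr2 and Fosl1 differed by 3.05 to 4.63, and Fos in control cells by 0.12.

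With SH-2251 in resting cells, 3 of the 9 genes measured were at least 2-fold lower than in control and none was 2-fold higher. These were Egr2, Fos and Fosl1. Among all 12683 genes 2.9% passed 2-fold downward and 2.22% upward, and the median of the 9 was -0.25 against -0.06. The count of 3 was 0 with normexp on all spots, 2 with normexp without the uneven spots (Egr2 and Fos) and 0 at a 3-fold threshold.

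Fosl1 differed most, at -1.54 with a technical SD of 0.25, which is 2.92-fold lower and the 155th lowest of 12683 genes. Its value depended on the background correction, being 0.01 with normexp and -0.86 with normexp without spots of uneven local background. Fos was 2.35-fold lower, a difference of -1.23 with a technical SD of 0.21, and its spots ranged from -1.35 to -1.27 in SH-2251 and from -0.18 to -0.03 in control cells. With normexp that difference was -0.75 on all spots and -1.01 without the uneven ones. Egr2 was 2.28-fold lower, at -1.19 with a technical SD of 0.21, and -0.92 and -1.05 with normexp on all spots and without the uneven ones.

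Junb was 1.46-fold lower on its brighter probe (-0.55) and -0.52 on the other, each larger than the technical SD of 0.20, and the brighter was at -0.85 with normexp. Fosb was at least 1.19-fold lower, since the SH-2251 side was not well above background. Fosl2 was at -0.25 and -0.38 on its probes. Egr1 was higher with SH-2251 by 0.37, while Jun (0.01) and Jund (0.13) differed by less than their technical SD. With normexp the Jun value was 0.69 and the Jund value -0.11. Egr3 gave no difference, as both sides were not well above background.

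In restimulated cells 1 of 10 genes was at least 2-fold lower with SH-2251 and none was higher, against 2.78% lower and 2.65% higher of all 12622 genes. The median of the 10 was -0.17, against -0.06 over all genes. The gene was Fosb, 2.19-fold lower at -1.13 with a technical SD of 0.24, and at -0.64 with normexp, under 2-fold. Egr2 was 1.71-fold lower at -0.77, and Fos was 1.43-fold lower at -0.51. The repeat spots of Egr2, Fos and Jun did not overlap between these arrays. Neither did those of Fos on restimulation in control cells, where the difference was 0.12. Repeat spots read the same RNA, so their separation says nothing of the spread between cultures.

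The other genes were closer together in restimulated cells. Fosl1 was at -0.25, Jun at -0.29, Junb at -0.09, Egr1 at 0.05, Jund at 0.19, Egr3 at 0.19 and Fosl2 at 0.22 on its brighter probe and 0.04 on its dimmer one. Of these, Fosl1, Jun and Fosl2 on its brighter probe narrowly passed their technical SD.

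**Figure D3:**
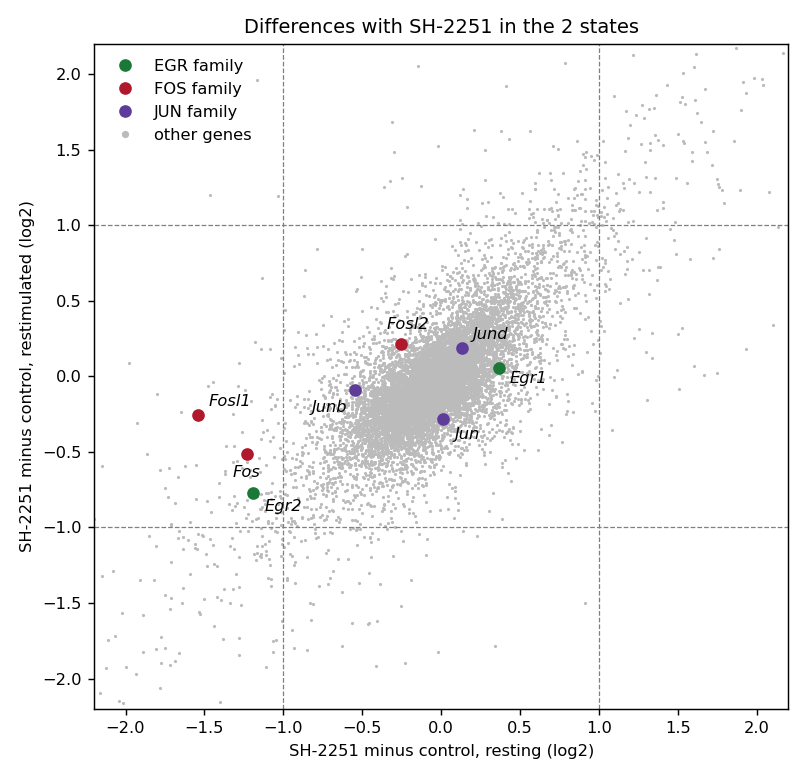
Difference between SH-2251 and control (log2) in resting cells on the horizontal axis and in restimulated cells on the vertical axis, for 11518 genes above background on all 4 arrays (grey) and 8 of the 10 genes (coloured by family); 69 genes lie outside the axes. Fosl1, Fos and Egr2 lie left of the dashed 2-fold line for resting cells, and all 8 genes lie between the 2-fold lines for restimulated cells.

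**Figure D4:**
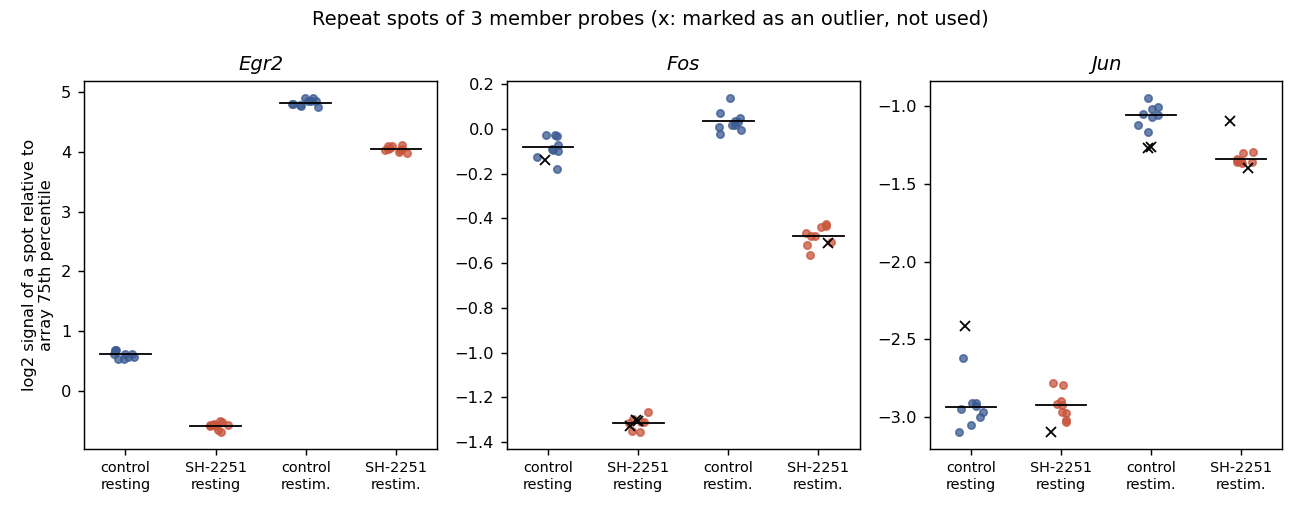
Level of each repeat spot (log2 relative to the 75th percentile of its array) of the Egr2, Fos and Jun probes on the 4 arrays, with the mean as a line and outlier spots as crosses. The 4 arrays separate for Egr2, the spots of control resting and restimulated cells lie next to each other for Fos, and the 2 resting arrays overlap for Jun.

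The change in the restimulation response with SH-2251 is the response with SH-2251 minus the response in control cells, and it restates the 4 levels above as 1 number. It was above 0 for 6 of the 8 genes measured on all 4 arrays, with a median of 0.44 against 0.01 over all 11518 genes. Only Fosl1 reached 1 log2 unit, at 1.29 with a technical SD of 0.32, where 1.22% of all genes were at or past 1 in either direction. It was -0.26 with normexp and 0.60 with normexp without spots of uneven local background, so its direction depended on the correction of the resting SH-2251 array. Fos was at 0.72, Fosl2 at 0.47, Junb at 0.46 and Egr2 at 0.42, each above its technical SD of 0.29. Jund was at 0.06, Jun at -0.30 and Egr1 at -0.31. With normexp Jun was at -0.99, Fos at 0.31, Junb at 0.87 and Egr2 at 0.17, the last below its technical SD. The count of 6 and the median of 0.44 were not computed again with normexp.

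Markers of other cell types also differed between the cultures. Cd8a, of cytotoxic T cells, was higher with SH-2251 by 1.45 in resting and 0.97 in restimulated cells. Of 5 B cell markers 4 were above background on each array and Pax5 was not. Their summed level, in multiples of the 75th percentile, was 4.27 in control resting, 4.92 in SH-2251 resting, 3.52 in control restimulated and 5.47 in SH-2251 restimulated cells, and Ms4a1 differed by 0.74 and 1.21. Of 5 myeloid markers 3 were above background and Lyz2 and Itgam were not, with sums of 2.44 to 2.99. Hba-a1, a red cell globin, was higher with SH-2251 by 1.15 and 1.28. The part of these cells in the differences of the EGR, FOS and JUN genes was not tested, and in a mixed culture fewer cells expressing a gene and less RNA per cell cannot be told apart.

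The genes that act with the 10 were described from lists drawn from their known roles. Their counts stand against the shares of all genes given above, 7.2% and 7.09% upward after restimulation in control and SH-2251 cultures, and with SH-2251 2.9% downward and 2.22% upward in resting and 2.78% downward and 2.65% upward in restimulated cells. Where 1 gene of a list passed 2-fold, its value describes that gene and not the list. Of the EGR partners and corepressors, 3 of 4 were measured and all 3 were at least 2-fold higher after restimulation in both cultures, with medians of 2.49 and 2.19. Egr4, the remaining EGR family gene, was higher by at least 3.72 in control cells and 4.55 with SH-2251 on the log2 scale. Nab2, which EGR proteins induce and which represses them in turn, was higher by 2.49 and 2.19, and Nab1 by 1.07 and 1.40. With SH-2251 none of these reached 2-fold in either state. In restimulated cells Egr4 was higher with SH-2251 by 0.90, Nab1 by 0.13 and Nab2 by 0.05. In resting cells Nab1 was at -0.21 and Nab2 at 0.36, and Egr4 was not well above background on either array.

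Among other basic leucine zipper partners of AP-1, 10 of 13 were measured, and 4 were at least 2-fold higher after restimulation in control cells and 2 in SH-2251-treated cells. The medians were 0.84 in both. Atf3, a stress-induced partner of JUN, was higher by 2.90 and 3.23, and Maff, a small MAF protein, by 2.66 and 3.24. The share past 2-fold was 40.0% and 20.0%. Atf4 (1.30 and 0.87) and Jdp2 (1.09 and 0.67) passed 2-fold in control cells. Maf, which drives Il4 transcription in Th2 cells, was the 1 gene of this list at least 2-fold lower with SH-2251, by -1.17 in resting and -1.22 in restimulated cells. Batf, the partner of JUN proteins in Th2 and Th17 cells, was at -0.74 and 0.00, and Batf3 at -0.84 and -0.38. The median with SH-2251 was -0.19 in resting and -0.10 in restimulated cells.

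The kinases and factors upstream of the 10 genes varied less. Of 20 measured, 2 were at least 2-fold higher after restimulation in each culture, with medians of 0.18 in both. That share, 10.0%, was near the share of all genes, so the list as a whole did not stand out. The 2 genes were Rps6ka3, which encodes the ERK-activated kinase RSK2 (2.33 and 1.96), and Elk3, a ternary complex factor (1.39 and 1.14). None was 2-fold different with SH-2251 in either state, and the medians were 0.08 and -0.01. Srf, the factor that binds the CArG boxes, was at -0.42 in resting and -0.25 in restimulated cells, and Elk3 at -0.58 and -0.84. In the other direction, Elk4, also a ternary complex factor, was at 0.36 and 0.64 and Mef2c at 0.09 and 0.84. Mapk14 was at 0.12 and -0.65.

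Of the other immediate-early genes, 24 were measured in control cells and 23 in SH-2251-treated cells, and 14 were at least 2-fold higher after restimulation in each. The medians were 1.16 and 1.58. Nr4a1, the nuclear receptor NUR77 that reports T cell receptor signalling, was higher by 6.13 and 6.17. Nr4a2 (3.34 and 3.17), Nfkbid (3.03 in both) and Gadd45b (2.83 and 3.55) followed. Dusp1, which inactivates MAP kinases, was at 0.22 and 0.17 and Myc at 0.05 and 0.25, and so like Fos in control cells they stood near their resting level at 4 h. With SH-2251 the medians of this list were 0.01 in resting and 0.09 in restimulated cells, and 1 gene, Klf4, was at least 2-fold higher, by 1.18 and 1.02.

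Of the genes reported as EGR targets in T cells 12 were measured, and 6 were at least 2-fold higher after restimulation in control cells and 7 in SH-2251-treated cells, where 1 was 2-fold lower. The medians were 1.13 and 1.24. Id3, an inhibitor of E proteins that EGR1 induces in thymocytes, was higher with SH-2251 by 1.89 in resting and 1.23 in restimulated cells, and was lower after restimulation by -0.52 and -1.18. Rnf128, which encodes the anergy ubiquitin ligase GRAIL, was higher with SH-2251 by 0.65 and 1.11. Fasl, the death ligand, was lower with SH-2251 by -0.85 and -1.20. The medians with SH-2251 were 0.23 and 0.13.

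All reported AP-1 target genes that were measured were at least 2-fold higher after restimulation, 12 in the control culture and 13 in the SH-2251 culture, with medians of 4.97 and 4.74. The list holds Il5, the gene this study is about, and it shares Tnf, Cd69 and Fasl with the EGR targets. Il3, an early T cell cytokine, was higher by at least 9.34 and 9.31, Ccl4 by 8.46 and 8.31 and Ccl3 by 8.27 and 7.36. In resting cells 2 of 10 were at least 2-fold lower with SH-2251, Il5 at -3.86 and Il13 at -1.32. In restimulated cells 5 of 13 were lower and 1 was higher. The lower ones were Il5 at -3.01, Ifng at -1.64, Il2 at -1.53, Fasl at -1.20 and Ccl3 at -1.04, and Il9 was higher by at least 1.99. The medians with SH-2251 were -0.28 and -0.57.

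**Figure D5:**
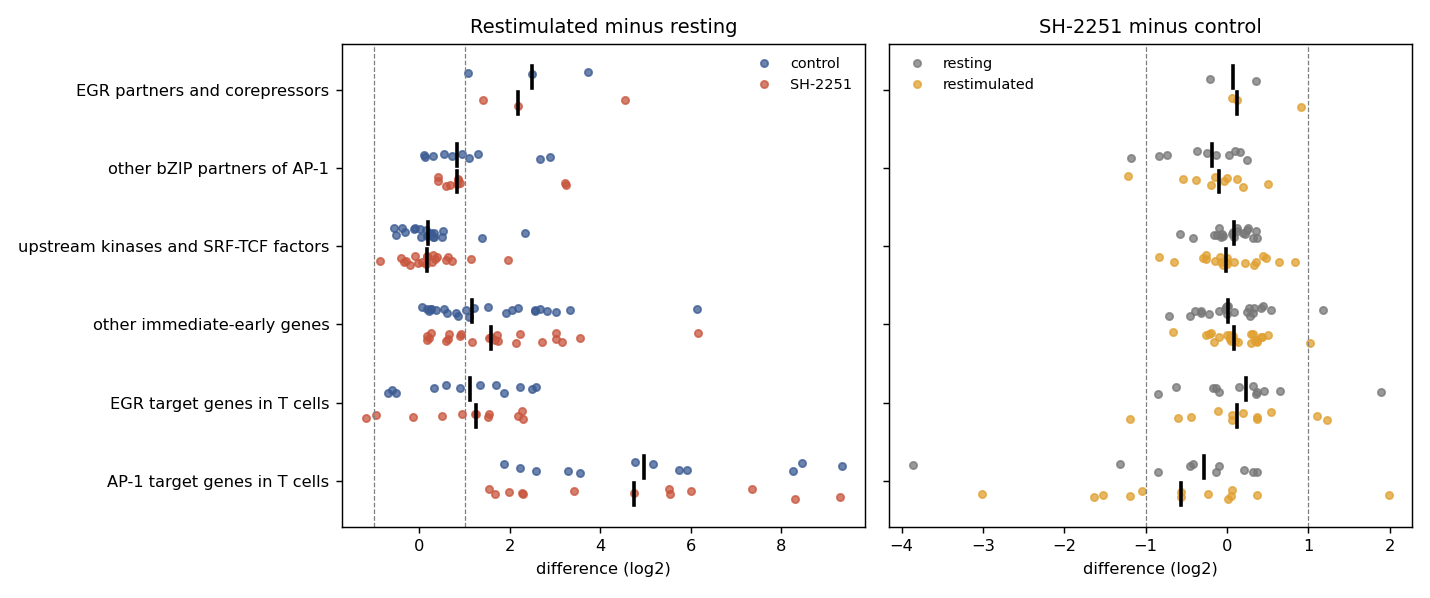
Differences (log2) of the genes of 6 lists, restimulated minus resting on the left (blue control, red SH-2251) and SH-2251 minus control on the right (grey resting, orange restimulated), 1 point per gene, with bounds drawn at their value and the median as a black bar. The AP-1 target list has the highest medians on the left (4.97 and 4.74), and the upstream list the lowest (0.18 in both).

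The genes nearest to each family in their course over the 4 arrays were found by the root mean square difference from the mean profile of its members, among 11510 other genes above background on all 4 arrays. Furin (0.26), Sema7a (0.29) and Zeb2 (0.31) were nearest to the mean of Egr1 and Egr2, which each lay 0.34 from it. Epcam (0.10) and Slco3a1 (0.10) were among the nearest to the mean of Fos, Fosl1 and Fosl2. Those members themselves lay 0.62, 1.03 and 0.51 from it. Gm8300 (0.01), Ppid (0.02) and Gemin5 (0.02) were nearest to the mean of Jun, Junb and Jund, which lay 0.22, 0.15 and 0.23 from it. The named genes are thus near an average and not near each member. Over 4 points, many genes can lie this close.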

How the data were processed

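Total RNA of the 4 samples was labelled with Cy3 and hybridised to whole mouse genome arrays on 1 slide. The authors deposited scanner files made with Agilent Feature Extraction (version 10.7 per the labels, 10.7.3.1 per the file headers), whose processed intensities had been corrected for background. The authors also deposited log2 values from the Subio Platform, which matched the log2 intensities less the 75th percentile of each array to within 0.01 for 99.6% to 99.7% of probes.

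Here log2 processed intensities minus that percentile were used. Control spots and outlier spots were left out, and repeat spots were averaged. Of 41173 probes found on all arrays, 27198 (66.1%) were named through the RefSeq accession and a RefSeq table of GRCm38.p6. The brightest probe stood for a gene. Genes well above background on at least 1 array of a pair entered a comparison. For a dim side, either its signal or the dimmest reliable signal of the array was taken, whichever was larger, and the difference is then a bound, which entered counts and medians at its value. Differences of at least 2-fold were counted. The number of arrays limits the precision, and intensities carry no read depth. The 10 genes and the lists were chosen with earlier results of these data known. Genes named from a list are those with the largest differences and those that a sentence on the 10 genes turns on. Normexp (offset 50) used median spot signals. The other settings were median centring, quantile normalization, the authors' values, other filters, the mean of probes, outlier spots kept, and thresholds of 1.5-fold and 3-fold. The procedure was tested on simulated data. One gene near the FOS profile is not reported here. Promoter sequences are from RefSeq. Python 3.11.15, numpy 2.4.6, pandas 2.3.3, matplotlib 3.10.9, R 4.3.3 and limma 3.58.1 were used.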

Additional observations from a re-analysis of the deposited data

How the results depend on the processing

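Of 419 values of single genes under 9 alternative settings, 380 stayed within the technical SD of the value reported, 37 moved further, and 2, both of Fosl1, changed sign from a difference past 2-fold. Another 5 differences under 2-fold changed sign, namely Jun (0.01), Jund (0.13), both in resting cells, Egr3 (0.19) and Junb (-0.09) in restimulated cells with SH-2251, and the change in response of Jund (0.06). Median centring, the authors' values, the filter on both arrays and keeping outlier spots moved none. With normexp, 5 genes were at least 2-fold higher after restimulation with SH-2251 (8 as reported), and 0 were 2-fold lower with SH-2251 in resting cells (3), 0 in restimulated cells (1), and 0 changed their response by 2-fold (1). The values of Fosl1 were 0.012 for SH-2251 in resting cells (-1.54) and -0.26 for the change in response (1.29). Without spots of uneven local background, normexp gave 5, 2 in resting cells, 0 in restimulated cells and 0 for the change in response. The background mean fitted by normexp was -151.7 intensity units on the resting SH-2251 array against 7.36 to 8.23 on the others, and 7.68 to 8.43 on the 4 arrays after leaving those spots out. At 1.5-fold, 2 genes were lower with SH-2251 in restimulated cells and 2 changed their response. At 3-fold, 3 were higher after restimulation with SH-2251, and 0 were lower in resting cells, 0 in restimulated cells and 0 changed their response. No paired analysis was possible because each condition has 1 array. Signal over background limits Egr3 and Fosb, for which the measured differences without a bound were 2.37 and 2.35 for Egr3 on restimulation without and with SH-2251, 2.38 for Fosb on restimulation with SH-2251 and -1.41 for Fosb with SH-2251 in resting cells. The bounds reported for them were 0.99, 1.11, 1.22 and -0.25, and the bounds with normexp were 0.67, 0.0, 0.0 and 0.0. A bound of 0.0 leaves the size of a difference unknown.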
